A study of Arabidopsis thaliana with 4 samples.

Results

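The 10 genes described here encode the core enzymes of phenylpropanoid and flavonoid synthesis in Arabidopsis thaliana and one of their regulators, in pathway order PAL1, PAL2, C4H, 4CL1, 4CL3, CHS, CHI, F3H, DFR and PAP1. They were picked by locus code, not by measured values, although earlier results of these data were known. Each had 1 row among the 30361 loci on the array. All 4 arrays, NimbleGen slides read in 1 colour, carried RNA of the wild-type accession Columbia-0, with no mutant or transgene in any group. The hexenal group holds 3 arrays, which the labels call biological replicates, of plants exposed for 30 min to (E)-2-hexenal at a stated 10 µM, delivered as 3 µL of a 1 M solution in acetonitrile evaporating inside a closed 340 cm3 box. They were compared with a single array of plants given acetonitrile, the solvent, for 30 min. Plants of both groups were grown at 23 °C with 14 h of light (80 µmol) and 10 h of dark, and treated at 25 °C. Every RNA sample pooled 6 or more plants, so each value is an average over plants and tissues, and a lower value can come from fewer cells of a type or from less RNA per cell. The study asked which stress-related genes reactive leaf volatiles induce.

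Phenylpropanoids start from phenylalanine. Phenylalanine ammonia-lyase (PAL) removes its amino group, cinnamate 4-hydroxylase (C4H) adds a hydroxyl group, and 4-coumarate:CoA ligase (4CL) activates the product, which then feeds lignin, sinapate esters or flavonoids. Chalcone synthase (CHS), chalcone isomerase (CHI) and flavanone 3-hydroxylase (F3H) build the flavonoid core, and dihydroflavonol 4-reductase (DFR) leads on to anthocyanins, the red and purple pigments. PAP1, also called MYB75, is a MYB transcription factor that activates anthocyanin genes. In leaves these compounds are known as sunscreens, antioxidants and defence compounds.

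The arrays carried a response to the treatment outside this pathway. HSFA2, a heat-inducible transcription factor gene, had deposited intensities of 21918, 26017 and 20113 on the hexenal arrays, against 281.5 on the acetonitrile array. Over all 30361 loci, 273 (0.899%) were called, meaning an adjusted p under 0.05 in limma with Benjamini-Hochberg adjustment and at least a 2-fold change, 263 of them higher and 10 lower. Without hexenal replicate 2 limma called no locus, and 1547 had an unadjusted p under 0.05, while 628 were called with a trended, robust variance. Among the 273 loci called, the smallest rise was 1.80 and the smallest fall was -2.24 on the log2 scale. The arrays' median intensities lay between 936 and 982. Leaf markers were bright on all arrays, with log2 levels of 14.31 to 15.78 for 6 genes, while 5 root markers lay at 6.18 to 8.0. The spread within a locus comes from the 3 hexenal arrays alone, since the single acetonitrile array gives none, and with so few arrays the precision is low. limma pools it with the spread over all loci. The standard error (SE) and interval of a gene with tight hexenal values thus rest largely on the other loci.

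None of the 10 pathway genes was called after 30 min of hexenal, against 0.899% of all loci (0.866% called higher and 0.0329% called lower). Their fold changes spanned -0.81 for DFR to 0.48 for PAP1 on the log2 scale, with a median of -0.12, beside -0.03 over all loci. That median was -0.27 without hexenal replicate 2 and -0.06 without replicate 3. The smallest adjusted p among them was 0.501, for F3H. An unadjusted p under 0.05 was found for 1 of 10, also F3H, beside 8.75% of all loci. All 10 acetonitrile levels lay above the dimmest 25% of loci.

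**Figure D1:**
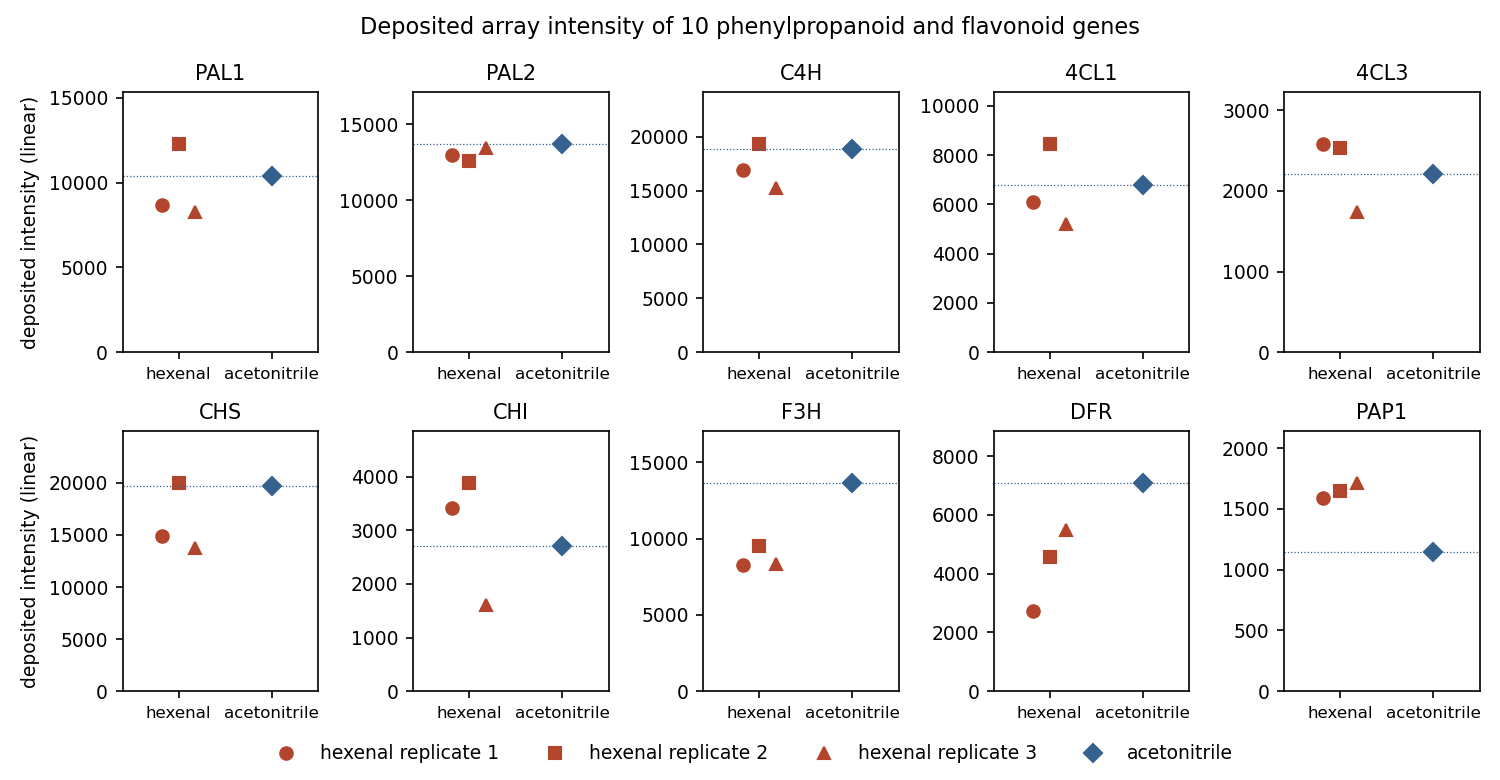
Deposited linear intensity of each of the 10 genes on the 3 hexenal arrays (circle, square and triangle for replicates 1, 2 and 3) and on the acetonitrile array (diamond, with a dotted line at its level). F3H and DFR lie below the dotted line and PAP1 above it on all 3 hexenal arrays, while PAL1, C4H, 4CL1, 4CL3, CHS and CHI have points on both sides.

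For the 5 general phenylpropanoid enzymes among the 10 genes, log2 fold changes lay between -0.16 and -0.0053. PAL1 (AT2G37040), which encodes the entry enzyme, had intensities of 8702, 12272 and 8272 on hexenal arrays 1, 2 and 3, against 10384 with acetonitrile. Hexenal replicate 2 lay above the acetonitrile value and the others below it, so the groups overlapped. Its log2 fold change was -0.13 ± 0.31 (SE), with a 95% interval of -0.92 to 0.65.

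PAL2 (AT3G53260), its paralogue with the same catalytic role, had 12988, 12541 and 13405 with hexenal, against 13690 with acetonitrile. All 3 hexenal values lay below the acetonitrile value, by 0.04 to 0.16 on the log2 scale, in a tight group with an SD of 0.06. The log2 fold change of PAL2 was -0.10 ± 0.23 (interval -0.69 to 0.48). C4H (AT2G30490), a cytochrome P450 gene, had 16952, 19324 and 15238 with hexenal and 18886 with acetonitrile. Replicate 2 again lay at or above the acetonitrile value, and the log2 fold change was -0.16 ± 0.26 (interval -0.81 to 0.48).

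The 4CL genes showed the same overlap. 4CL1 (AT1G51680), mostly linked to lignin, had 6086, 8447 and 5203 with hexenal, against 6780 with acetonitrile, and a log2 fold change of -0.09 ± 0.34. 4CL3 (AT1G65060), mostly linked to flavonoids, had 2583, 2537 and 1735 with hexenal, against 2211 with acetonitrile. Its hexenal mean differed from the acetonitrile level by -0.0053 ± 0.31 on the log2 scale, and the sign turned with the values as deposited (0.024). For all 5 genes, PAL1 to 4CL3, the 95% interval lay inside a 2-fold change in either direction, as it did for 48.6% of all loci. PAL and 4CL paralogues are close in sequence, and whether their probes cross-hybridize was not tested.

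The flavonoid enzymes spread more widely. CHS (AT5G13930), the first committed enzyme of flavonoid synthesis, had 14891, 19981 and 13716 with hexenal, against 19685 with acetonitrile. Replicates 1 and 3 were lower than acetonitrile, while replicate 2 differed from it by -0.01 after normalization and lay just above it as deposited. The log2 fold change of CHS was -0.32 ± 0.30 (interval -1.08 to 0.43). CHI (AT3G55120), whose enzyme closes the flavanone ring, had 3413, 3879 and 1602 with hexenal, against 2699 with acetonitrile. Here replicates 1 and 2 lay above the acetonitrile value and replicate 3 below it, and an SD of 0.67 was the widest of the 10 genes. The log2 fold change of CHI was 0.0067 ± 0.52, with an interval of -1.31 to 1.32 that reaches past a 2-fold change in both directions.

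F3H (AT3G51240) gave the most uniform difference among the enzymes of the flavonoid branch. It had 8276, 9481 and 8360 with hexenal, against 13634 with acetonitrile. The hexenal values lay close together, with an SD of 0.11 on the log2 scale, and all were below the acetonitrile value by 0.56 to 0.75. The mean with hexenal was 62.4% of the acetonitrile level. The log2 fold change was -0.68 ± 0.24 (interval -1.28 to -0.07), with an unadjusted p of 0.0339 and an adjusted p of 0.501 in limma over all loci, so it was not called. An unadjusted p under 0.05 with a lower hexenal mean was found for 2.91% of all loci.

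DFR (AT5G42800) had the lowest fold change of the 10 genes and differed between the hexenal arrays. Its intensities were 2728, 4560 and 5499 with hexenal, against 7081 with acetonitrile. All hexenal values were below the acetonitrile value, but replicate 1 by 1.40, replicate 2 by 0.66 and replicate 3 by 0.37 on the log2 scale. The log2 fold change was -0.81 ± 0.44 (interval -1.91 to 0.28; adjusted p = 0.666 in limma). It was -0.52 without replicate 1 and -1.03 without replicate 3, and DFR was not called in either case.

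PAP1 (AT1G56650) was the only one of the 10 genes with all 3 hexenal values above the acetonitrile value, a pattern shared by 26.1% of all loci. It had 1589.9, 1645 and 1712 with hexenal, against 1145 with acetonitrile. The hexenal values were tight (SD 0.08 on the log2 scale), and the mean was 1.40-fold the acetonitrile level. The log2 fold change was 0.48 ± 0.24 (interval -0.11 to 1.07), with an adjusted p of 0.648 in limma, so PAP1 was not called. The activator gene thus lay above, and F3H and DFR below, the acetonitrile level on every hexenal array, and none of these differences passed the test.

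**Figure D2:**
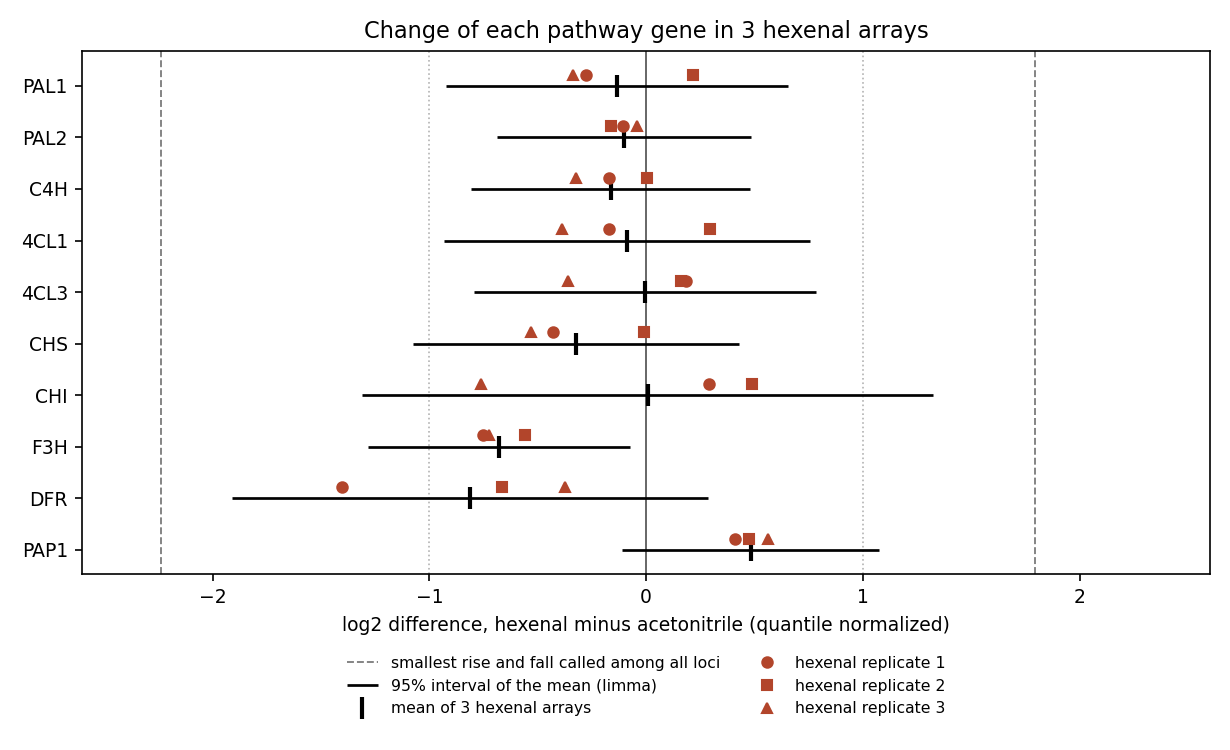
Log2 difference between hexenal and acetonitrile for each gene, in pathway order from top to bottom: red symbols are the 3 hexenal arrays, the vertical tick their mean and the bar limma's 95% interval. Dotted lines mark a 2-fold change and dashed lines the smallest fall (-2.24) and rise (1.80) called among all loci. No point and no interval of the 10 genes reaches a dashed line, and only the F3H interval lies wholly on one side of 0.

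The hexenal arrays did not rank alike for all 10 genes. Replicate 2 gave the highest hexenal value for 6 of the 10, beside 28% of all loci, and replicate 3 the lowest for 6 of the 10, beside 38.4% of all loci. For PAL1, PAL2, C4H, 4CL1 and 4CL3 the median log2 differences from acetonitrile were -0.17, 0.16 and -0.34 on hexenal arrays 1, 2 and 3. For CHS, CHI, F3H and DFR they were -0.59, -0.29 and -0.63. The median SD over the hexenal arrays was 0.29 for the 10 genes and 0.24 for all loci. All 3 hexenal values lay on 1 side of the acetonitrile value for 5 of the 10 genes, beside 58.5% of all loci. They lay below it for 4 of the 10 genes (PAL2, CHS, F3H and DFR), beside 32.4% of all loci. That number was 3 with the values as deposited (33.8% of all loci) or cyclic loess (28.7%), where CHS dropped out, and 5 with median centring (36%), where C4H came in. Over the 2 arrays left without hexenal replicate 2 it was 7, beside 37.7% of all loci.

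Genes around the core were examined next, as 8 lists of 85 loci, of which 80 carried the list's name in the reference and were kept. Of those left out, DHS3, EPSPS, UGT75C1 and KFB-CHS lay below acetonitrile on all 3 hexenal arrays, beside 32.4% of all loci. UGT89C1 overlapped the acetonitrile value, as did KFB-CHS with cyclic loess. None of the 80 was called, beside 0.899% of all loci. For 8 the unadjusted p was under 0.05 (3 higher, 5 lower), a share close to the 8.75% of all loci. The other isoforms of the entry enzymes were below acetonitrile on all 3 hexenal arrays in 4 of 4 cases, beside 32.4% of all loci, though 4CL5 was not with cyclic loess. PAL4 had log2 differences of -1.02, -1.37 and -0.04 on hexenal arrays 1, 2 and 3, and a fold change of -0.81 ± 0.54. 4CL2 was at -0.25 ± 0.24. The median of these 4 genes (PAL3, PAL4, 4CL2 and 4CL5) was -0.66, with no adjusted p below 0.685.

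**Figure D3:**
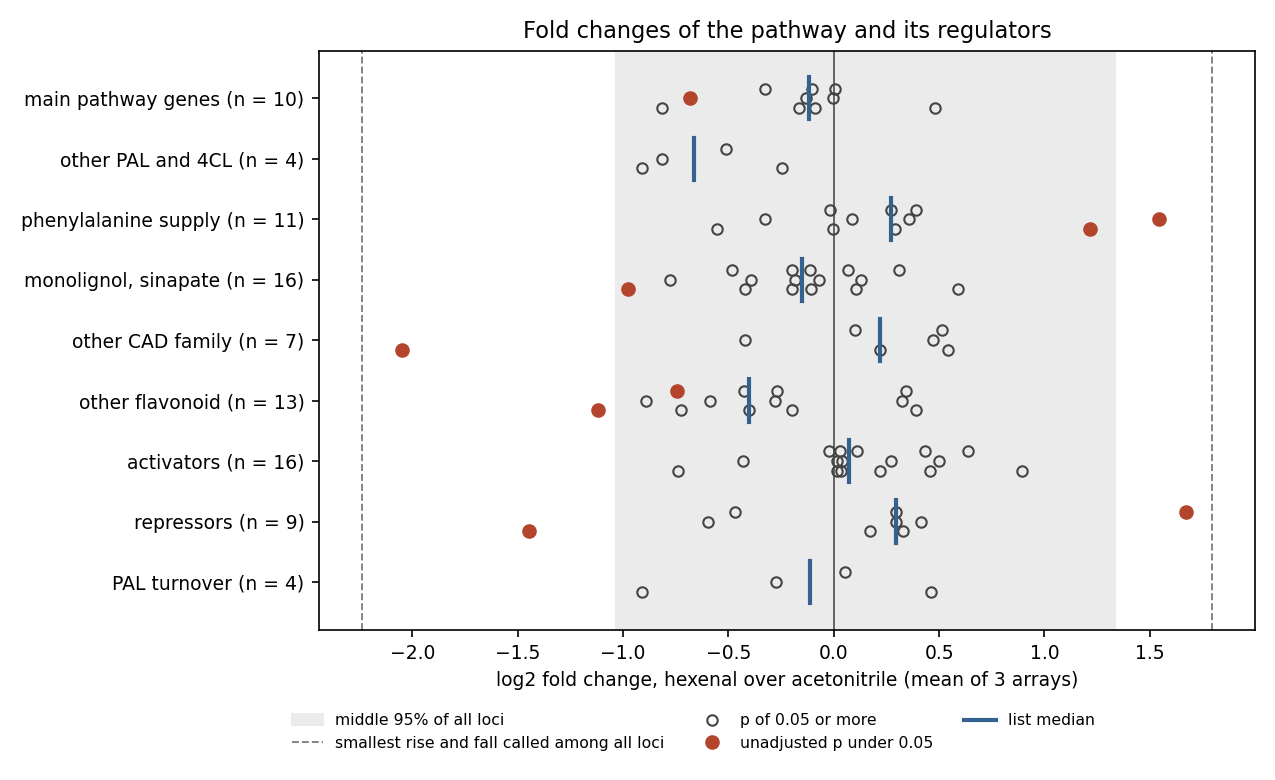
Log2 fold change, hexenal over acetonitrile, of every gene in the core set and in the 8 surrounding lists. Filled points have an unadjusted p under 0.05, blue ticks are list medians, the grey band holds the middle 95% of all loci (-1.03 to 1.34) and dashed lines are the smallest fall and rise called. No gene lies beyond the dashed lines, and the list medians run from -0.66 for the other PAL and 4CL genes to 0.29 for the repressors.

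Upstream, where phenylalanine is made, 2 of 11 genes had an unadjusted p under 0.05, both higher, as were 5.83% of all loci, and both encoding arogenate dehydratases, which catalyse the last step to phenylalanine. They were named after their values were seen. ADT4 had intensities of 12432, 16274 and 14571 with hexenal, against 6076 with acetonitrile, and a log2 fold change of 1.21 ± 0.27. ADT5 had 8579, 10470 and 5916 with hexenal, against 2715 with acetonitrile, and a log2 fold change of 1.55 ± 0.37. For both genes every hexenal value lay above the acetonitrile value, as it did for 26.1% of all loci. Over all loci the adjusted p was 0.201 for ADT4 and 0.244 for ADT5 in limma, and with a trended, robust variance both were called (0.0162 and 0.0260). Of the other arogenate dehydratase genes, ADT1 was at -0.02 ± 0.24, ADT2 at 0.36 ± 0.39, ADT3 at -0.55 ± 0.28 and ADT6 at -0.33 ± 0.30. All 3 hexenal values lay below the acetonitrile value for ADT3 and ADT6, while ADT1 and ADT2 overlapped it. ADT1, ADT2 and ADT3 were also named after their values were seen. DHS1, whose enzyme opens the shikimate pathway, was at -0.0044 ± 0.25, or 0.056 with cyclic loess. The median of the 11 genes was 0.27. It does not count DHS3 (-0.37 ± 0.28) and EPSPS (-0.26 ± 0.24), left out for want of a matching reference name.

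Downstream in the flavonoid branch, 13 further enzyme and transport genes had a median log2 fold change of -0.40. All 3 hexenal values lay below the acetonitrile value for 9 of 13, beside 32.4% of all loci, and above it for 2. The number below was 8 with cyclic loess (28.7% of all loci), 9 with median centring (36%) and 10 with the values as deposited (33.8%). Over the 2 arrays left without hexenal replicate 1 it was 9, beside 39% of all loci. TT7, encoding flavonoid 3'-hydroxylase, had 1189, 1619 and 1310 with hexenal, against 2218 with acetonitrile (log2 fold change -0.74 ± 0.28, unadjusted p = 0.0432). The anthocyanin acyltransferase gene 5MAT, named after its values were seen, had 1172.5, 1345 and 1707 with hexenal, against 2951 with acetonitrile (-1.12 ± 0.31, unadjusted p = 0.0137). In both genes every hexenal value was below the acetonitrile value. Their adjusted p values were 0.547 and 0.338 in limma, and neither was called.

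LDOX, whose enzyme follows DFR on the way to anthocyanins, was at -0.59 ± 0.41, and GSTF12, a glutathione transferase gene needed for anthocyanin transport, at -0.28 ± 0.35. On the flavonol side, FLS1 (flavonol synthase) was at 0.34 ± 0.60. Among flavonoid glycosyltransferase genes, UGT78D2 was at 0.39 ± 0.30 and UGT78D1, named after its values were seen, at -0.40 ± 0.27. All 3 hexenal values lay above the acetonitrile value for UGT78D2 and below it for UGT78D1. FLS1 differed by 1.20, 0.16 and -0.34 from acetonitrile on hexenal arrays 1, 2 and 3, so its groups overlapped. Whether flavonol and anthocyanin genes differ in their change was not tested.

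The differences in this branch were not even across the hexenal arrays. The 13 genes had medians of -0.71, -0.13 and -0.34 on hexenal arrays 1, 2 and 3, and replicate 1 gave the lowest hexenal value for 10 of 13, beside 32.8% of all loci. LDOX differed by -1.09, -0.55 and -0.12 on arrays 1, 2 and 3, the same order as DFR. Hexenal replicate 1 also stood apart in floral markers, although 7 of the 8 flower and seed markers had acetonitrile levels in the dimmest 25% of loci. On that array the floral genes AP1, AP3, PI, AG and SEP3 differed from acetonitrile by 1.97, 1.17, 0.14, 0.86 and 0.95 on the log2 scale, and the seed genes CRU3, OLEO1 and SESA3 by -0.17, -0.49 and -0.88. The median of the 8 was 0.50 on replicate 1, -0.11 on replicate 2 and -0.01 on replicate 3. The summed level of those markers was 1238, 978 and 1042 on hexenal arrays 1, 2 and 3, and 1065 with acetonitrile. The 5 root markers had medians of -0.57, -0.25 and -0.05 and summed levels of 648, 713 and 866 with hexenal, against 923 with acetonitrile. The 6 leaf markers had medians of -0.15, -0.17 and -0.08. The part of tissue make-up in the flavonoid values was not tested. Without replicate 1 the median of the 13 flavonoid genes was -0.32.

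**Figure D4:**
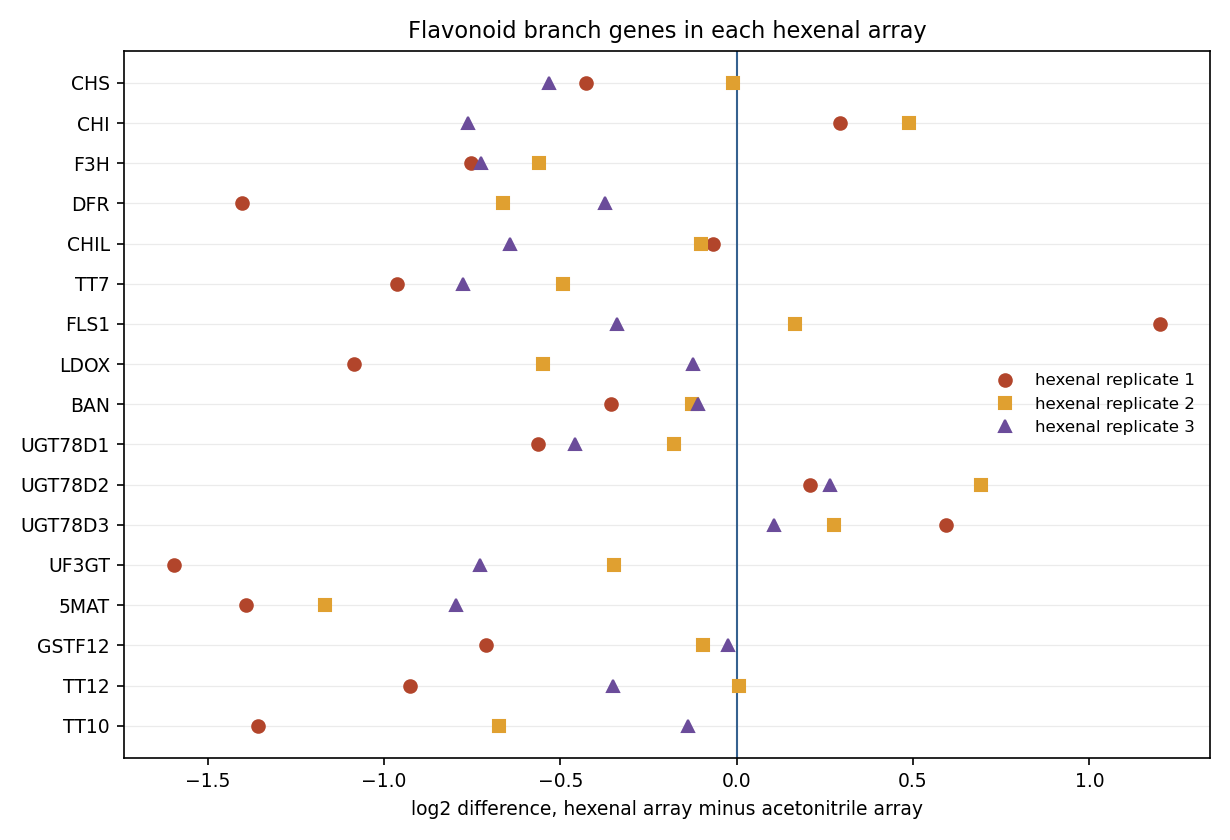
Log2 difference from the acetonitrile array (blue line at 0) of 4 core and 13 further flavonoid genes on hexenal replicates 1 (circles), 2 (squares) and 3 (triangles). Circles lie farthest left for DFR, LDOX and most other genes, while FLS1 has its circle at 1.20, to the right of the line.

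In the lignin and sinapate branch, 16 genes had a median of -0.15, with 8 of 16 below acetonitrile on all 3 hexenal arrays and none above it, beside 32.4% and 26.1% of all loci. With the values as deposited 2 of the 16 lay above, and with median centring or cyclic loess 1 did. HCT (-0.20 ± 0.23), C3H1 (-0.39 ± 0.36), CCoAOMT1 (-0.11 ± 0.34), COMT1 (-0.42 ± 0.25), CCR1 (-0.18 ± 0.23) and FAH1 (-0.20 ± 0.23), all genes of lignin precursor synthesis, gave no call. CCR2, a cinnamoyl-CoA reductase gene linked to defence, was at 0.59 ± 0.45. CAD5, a cinnamyl alcohol dehydrogenase gene of lignin synthesis, had 2243, 2692 and 3916 with hexenal, against 5541 with acetonitrile. Its 3 hexenal values were all below the acetonitrile value, and its log2 fold change of -0.98 ± 0.38 had an unadjusted p of 0.0448 and an adjusted p of 0.552 in limma.

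Among 16 activators of the pathway none had an unadjusted p under 0.05, and 6 had acetonitrile levels in the dimmest 25% of loci. PAP2, the closest relative of PAP1, was at 0.27 ± 0.25 in that dim range, and the light-response factor gene HY5 was at 0.50 ± 0.27. The flavonol regulators MYB12 and MYB111, also dim, were at 0.11 ± 0.27 and 0.04 ± 0.38, and the anthocyanin cofactor gene TT8 at 0.04 ± 0.31. These 3 had negative values with median centring (-0.0086, -0.10 and -0.05). The median of the 16 was 0.07. All 3 hexenal values lay above the acetonitrile value for 3 of them and below it for 2, beside 26.1% and 32.4% of all loci. The 2 below, TT2 (-0.74 ± 0.35) and MYB11 (-0.43 ± 0.35), were named after their values were seen. With cyclic loess MYB11 overlapped the acetonitrile value.

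Of 9 repressor genes, MYB4, which holds down C4H, was at 0.17 ± 0.24, and MYBL2, which holds down anthocyanin genes, was at 0.30 ± 0.28. Neither had an unadjusted p under 0.05. LBD39 and MYB7 did, and were named after their values were seen. LBD39, a nitrogen-linked repressor of anthocyanin synthesis, had 1797, 1799.9 and 2617 with hexenal, against 5423 with acetonitrile (-1.45 ± 0.32, adjusted p = 0.208 in limma). MYB7 had 458, 606.5 and 240.2 with hexenal, against 132.5 with acetonitrile, where it lay in the dimmest 25% (1.67 ± 0.55, adjusted p = 0.454). In both genes the hexenal values all lay on one side of the acetonitrile value, in opposite directions, as they lay on 1 side for 58.5% of all loci. Of the 9 repressor genes, 5 lay above it on all 3 hexenal arrays and 3 below, beside 26.1% and 32.4% of all loci. KFB20 and KFB50, F-box genes whose proteins target PAL for breakdown, were at 0.05 ± 0.45 and -0.91 ± 0.48.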

How the data were processed

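Each array came as a single linear intensity for every locus, as deposited by the authors. Their background correction, probe summary and normalization were not given in the sources used here. Per the labels' protocols, cDNA was primed with oligo-dT, made double-stranded and labelled with Cy3 by random priming, so sense and antisense RNA cannot be told apart. Quartiles differed between arrays by up to 0.201 on the log2 scale, above a tolerance of 0.1, so log2 values of the deposited intensities were quantile normalized. Hexenal was compared with acetonitrile over all 30361 loci in R 4.3.3 with limma 3.58.1 (lmFit, eBayes), with two-sided tests, Benjamini-Hochberg adjustment and 95% intervals. There were 2 residual degrees of freedom, and the spread pooled over all loci added 3.43 prior ones. The control is assumed to vary like the hexenal arrays. Calls needed an adjusted p under 0.05 and 2-fold. RefSeq names (TAIR10.1) matched 29976 loci. Coordinates are left out because the sources used here name no build. The fit was tested on simulated data, where its intervals held at about their stated rate, but in several runs the share of false calls was above the adjusted p threshold, more so after quantile normalization.

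The members and lists were chosen with earlier results of these data known. Named genes are the 10 members, HSFA2, any called list gene (none in the main fit) and further list genes fixed by name. Other list and marker genes, and loci left out of the lists, were named after their values were seen. Alternatives were 3 other scalings, a filter on the dimmest 25%, a trended robust variance, 16 added before the log, no fold threshold, and leaving out each hexenal replicate.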

Additional observations from a re-analysis of the deposited data

How the results depend on the processing

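None of the 10 core genes was called under any of the 10 alternatives, and in each at most 1 had an unadjusted p under 0.05. Their median log2 fold change ran from -0.27 (without hexenal replicate 2) to -0.06 (without replicate 3). Only values near 0 changed sign. 4CL3 was at 0.024 with the values as deposited and ran from -0.10 to 0.17 when 1 hexenal replicate was left out, 4CL1 from -0.28 to 0.061 and CHI from -0.24 to 0.39. F3H stayed between -0.74 and -0.64, with an unadjusted p from 0.0112 to 0.0744. With a trended, robust variance 628 of the 30361 loci were called, and 3 of the 80 surrounding genes (ADT4, ADT5 and LBD39). Leaving out 1 replicate gave 0 to 406 calls over all loci by limma, with 0 of them without replicate 2, where 1547 loci had an unadjusted p under 0.05. It gave no call among the 80 genes. Counts of genes with every hexenal array below acetonitrile when a replicate was left out were added after seeing the data. No paired analysis was possible because the acetonitrile group has 1 array. No scanner files were used, so signal over background is unknown.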

Other observations

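The wider cinnamyl alcohol dehydrogenase family, 7 genes listed by family name, held values in opposite directions at neighbouring locus codes. CAD7 (ELI3-1) had intensities of 9396, 8366 and 7128 with hexenal, against 5672 with acetonitrile. CAD8 (ELI3-2) had 501, 1914 and 1743 with hexenal, against 4839 with acetonitrile. All 3 hexenal values lay above the acetonitrile value for CAD7 and below it for CAD8, with replicate 1 of CAD8 far under the other hexenal arrays. Of the 7 genes, 4 lay above it on all 3 hexenal arrays and 2 below, beside 26.1% and 32.4% of all loci. With the values as deposited or median centring 3 lay above. The unadjusted p of CAD8 was 0.0460 in limma. The log2 fold changes were 0.51 ± 0.27 for CAD7 and -2.05 ± 0.79 for CAD8, with adjusted p values of 0.661 and 0.556 in limma, so neither was called. Whether probes of these related genes cross-hybridize was not tested.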
